A study of Homo sapiens with 12 samples.

Results

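The genes described here are 42 genes of autophagy and the lysosome, followed across 12 expression arrays of RCC4 cells. They were chosen by name and known function, with earlier results of these data known. All 42 had a probe set among the 11963 genes measured. Each gene is represented by its probe set with the highest mean over the 12 arrays. By role they comprise 15 initiation genes, 11 conjugation genes, 5 cargo receptor genes and 11 lysosome genes.

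All 4 groups were RCC4, a long-established human line from a clear cell renal carcinoma without functional VHL. Cells were reverse transfected with siRNA to TAZ, the protein of WWTR1 (siTAZ), or with non-targeting siRNA (siNT) for 2 days. They then received 1 µM erastin or the vehicle DMSO for 7 hours. The groups were siTAZ with erastin, siTAZ with DMSO, siNT with erastin and siNT with DMSO, each with 3 arrays that the submitters call biological triplicates. The labels do not give the sequence of the siRNA or say whether it was a pool. Silencing was by transfection, so WWTR1 was lowered and not deleted.

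Macroautophagy encloses cytoplasm in a double membrane, the autophagosome, and delivers it to lysosomes for degradation. The ULK1 kinase complex and a phosphatidylinositol 3-kinase complex start the membrane. A ubiquitin-like conjugation pathway then attaches ATG8 proteins (the LC3 and GABARAP families) to it, and cargo receptors link cargo to these ATG8 proteins. TFEB, TFE3 and MITF are transcription factors that bind E-box sequences in promoters of lysosomal and autophagy genes. In clear cell renal carcinoma, autophagy and lysosomal turnover have been studied together with metabolic adaptation, and degradation of ferritin by autophagy supplies iron that ferroptosis needs. TAZ is a transcriptional coactivator of the Hippo pathway that acts through TEAD factors. Erastin blocks cystine uptake by the SLC7A11 antiporter and can cause ferroptosis, an iron-dependent form of cell death.

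WWTR1 had log2 signals of 9.09 to 9.46 (median 9.26) on the 6 siTAZ arrays and of 12.19 to 12.35 (median 12.28) on the 6 siNT arrays, so the silencing labels match the target gene. Renal line markers (PAX8, PAX2, VIM, CDH6, KRT8 and KRT18; 6 of 8 listed were measured) had group means of 7.99 to 13.59. Leukocyte, endothelial and erythroid markers had group means of 2.60 to 6.02, and their summed signals overlapped between the groups in each of the 3 lists. The members ATG16L1, ULK2 and ATG2B had signals in the same range as these markers, so differences in them may be understated. The difference between the 3′ and 5′ actin control probe sets (actin 3′ minus 5′), which grows as RNA degrades, was 3.01 to 3.63 on siTAZ erastin arrays, 2.62 to 2.70 on siTAZ DMSO arrays, 1.49 to 2.82 on siNT erastin arrays and 2.40 to 2.97 on siNT DMSO arrays. For GAPDH control probe sets the difference was 0.16 to 0.27 on siTAZ erastin arrays and 0.15 to 0.28 on siTAZ DMSO arrays. It was 0.07 to 0.22 on siNT erastin arrays and 0.12 to 0.25 on siNT DMSO arrays, so these ranges overlapped. Values below are log2 signals of single arrays, or log2 fold changes (log2FC) ± standard error from limma (n = 3 arrays in each group). The words rose and fell are used of genes with a limma adjusted p (Benjamini-Hochberg, over all 11963 genes) under 0.05. On bulk arrays, a change in RNA per cell and a change in the share of cells that express a gene cannot be told apart.

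The first comparison asks how silencing WWTR1 in DMSO altered these genes. LAMP2, GABARAPL1 and TFEB rose most, by 2.08-fold, 1.75-fold and 1.44-fold. The lysosomal enzyme genes CTSD, CTSA, HEXA and CTSZ rose by smaller amounts, whereas the protease gene CTSL fell. Among the earlier steps of autophagy, ATG101, ATG3, ATG2A and PIK3R4 fell, and AMBRA1, RB1CC1 and the cargo receptor gene TAX1BP1 rose. In all, 10 of the 42 rose and 5 fell (35.7%), beside 28.6% of all genes, of which 14.7% rose and 13.9% fell. The member median log2FC was 0.03 and that of all genes −0.014, so the 42 as a whole lay near the background. The siTAZ and siNT arrays did not overlap in 21 of the 42 members, beside 43.8% of all genes. The siTAZ arrays lay above in 13 and below in 8, beside 21.4% and 22.4% of all genes. LAMP2 and GABARAPL1 were the 2 called members that changed by over 1.5-fold. Only 8 of the 15 calls held when each of the 6 compared arrays was left out in turn; the calls that did not hold are named with their genes. Without siNT DMSO replicate 3, 6 members rose and 5 fell, and without siTAZ DMSO replicate 1 or 3, 7 rose and 3 fell.

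**Figure D1:**
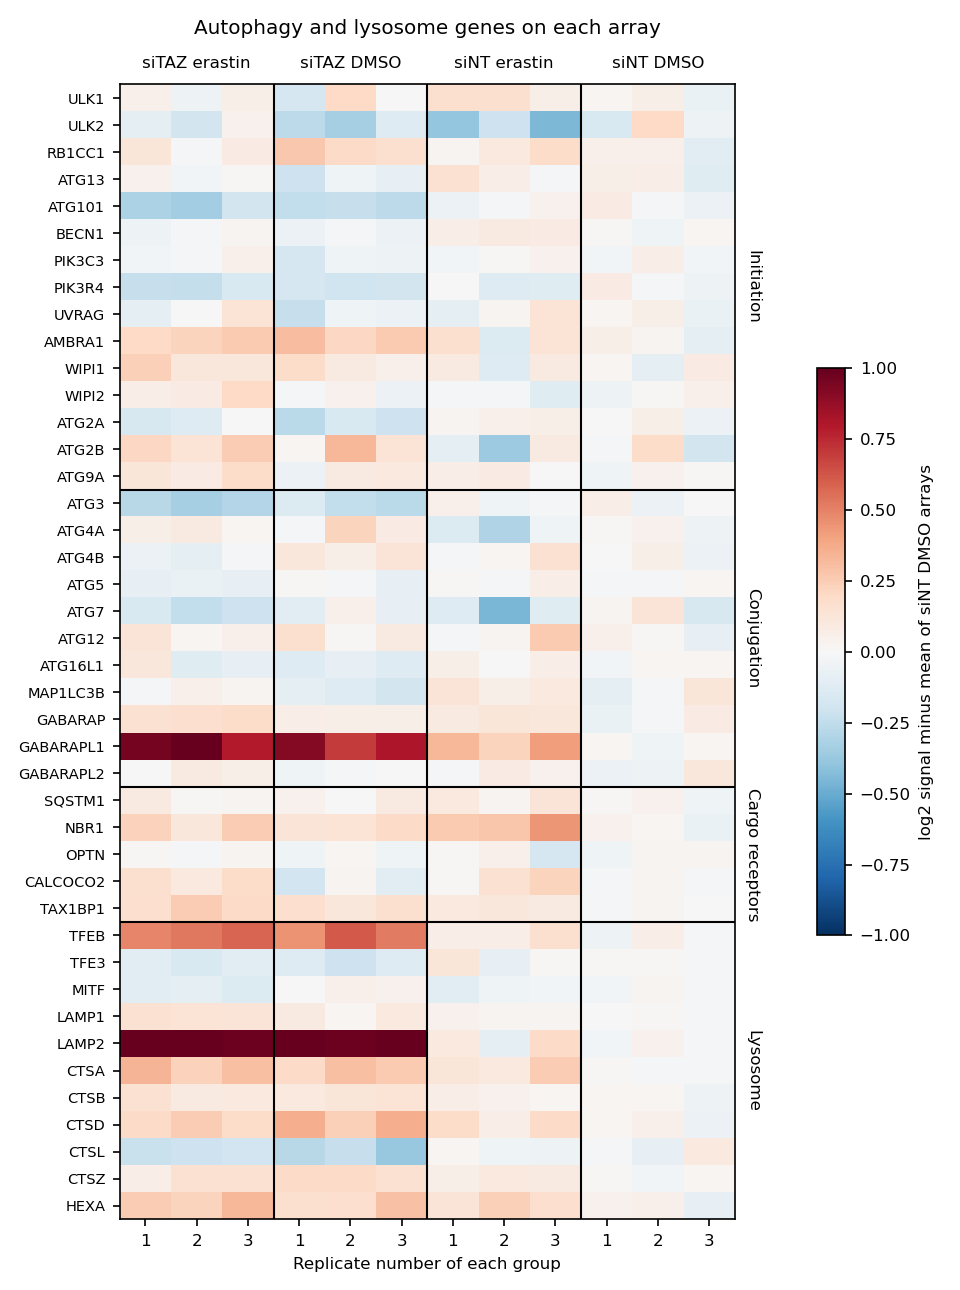
Heat map of the 42 genes (rows, in their 4 role groups) on the 12 arrays (columns, by group and replicate number); colour is the log2 signal minus the mean of the 3 siNT DMSO arrays. LAMP2, GABARAPL1 and TFEB are higher on all 6 siTAZ arrays than on any siNT array, and most other rows differ by less than 0.3.

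**Figure D2:**
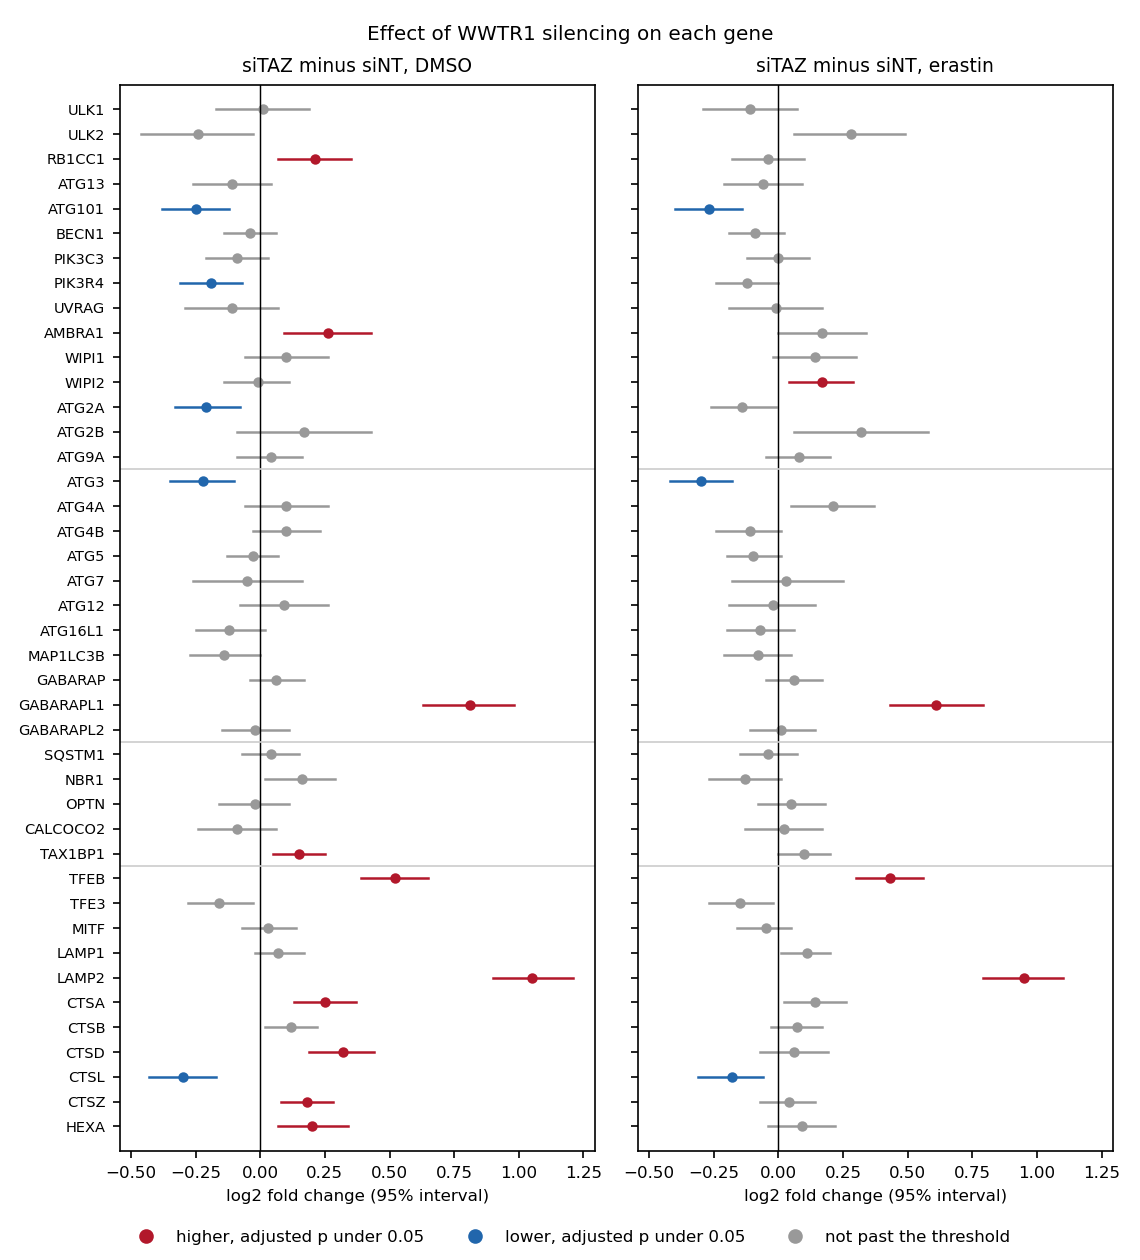
Effect of WWTR1 silencing on each of the 42 genes, as the log2 fold change of siTAZ over siNT with its 95% interval, in DMSO (left) and under erastin (right); red and blue mark adjusted p under 0.05. In DMSO 15 genes pass and under erastin 7, and LAMP2 stands farthest from 0 in both panels, at 1.05 and 0.95.

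Of the 11 lysosome genes, 6 rose and 1 fell in DMSO (63.6%, beside 28.6% of all genes), with a median log2FC of 0.18. Under erastin 2 rose and 1 fell (27.3%, near the 28.2% of all genes), with a median of 0.07. LAMP2 encodes a heavily glycosylated protein of the lysosomal membrane, needed for fusion of autophagosomes with lysosomes. Its log2 signals were 10.86, 10.71 and 10.77 on siTAZ DMSO arrays, against 9.70, 9.77 and 9.71 on siNT DMSO arrays. Under erastin they were 10.75, 10.77 and 10.71 on siTAZ arrays, against 9.83, 9.64 and 9.92 on siNT arrays. Every siTAZ array was thus higher than every siNT array, and LAMP2 rose by 1.05 ± 0.07 in DMSO (adjusted p = 4.94e-07) and by 0.95 ± 0.07 under erastin (adjusted p = 1.27e-06). The size of the rise depended on the probe set. LAMP2 transcripts end in alternative last exons, and the platform annotation ties the brightest probe set to a LAMP2B record and the other 2 probe sets to a LAMP2A record; LAMP2A is the receptor of chaperone-mediated autophagy. Tested with all 19064 probe sets, those 2 rose by 0.30 and 0.29 in DMSO (adjusted p = 0.00139 and 0.00378) and by 0.19 and 0.18 under erastin (adjusted p = 0.0217 and 0.0486). No difference between the probe sets of LAMP2 was tested.

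TFEB, the transcription factor most studied as a driver of lysosomal genes, had log2 signals of 7.65, 7.81 and 7.72 on siTAZ DMSO arrays and 7.15, 7.27 and 7.19 on siNT DMSO arrays. Under erastin it had 7.69, 7.73 and 7.78 on siTAZ arrays, against 7.27, 7.27 and 7.36 on siNT arrays. The groups did not overlap, and TFEB rose by 0.52 ± 0.06 in DMSO (adjusted p = 3.25e-05) and by 0.43 ± 0.06 under erastin (adjusted p = 0.000154). Its second, dimmer probe set had log2FC of 0.10 (adjusted p = 0.399) and 0.11 (adjusted p = 0.36) and was not called. TFEB is controlled chiefly by phosphorylation and nuclear entry, which arrays do not measure. Its relatives were not called: TFE3 had log2FC of −0.16 ± 0.06 (adjusted p = 0.0581) and −0.15 ± 0.06 (adjusted p = 0.0797), and MITF had 0.03 ± 0.05 and −0.05 ± 0.05.

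The acid hydrolase genes moved by less than 1.3-fold, and not all in the same direction. CTSD, the gene of the aspartic protease cathepsin D, had 10.04, 9.92 and 10.04 on siTAZ DMSO arrays, against 9.70, 9.73 and 9.62 on siNT DMSO arrays, and rose by 0.32 ± 0.06 (adjusted p = 0.00128). CTSA, the gene of the protective protein that stabilises lysosomal β-galactosidase and neuraminidase, had 10.22, 10.33 and 10.29 against 10.04, 10.02 and 10.02 on those siTAZ and siNT arrays, and rose by 0.25 ± 0.06 (adjusted p = 0.00437). HEXA, which encodes the α subunit of β-hexosaminidase, rose by 0.20 ± 0.06 (adjusted p = 0.0241), and the carboxypeptidase gene CTSZ rose by 0.18 ± 0.05 (adjusted p = 0.0124). The cysteine protease gene CTSL went the other way: it had 10.09, 10.14 and 9.99 on siTAZ DMSO arrays and 10.36, 10.29 and 10.47 on siNT DMSO arrays, and fell by 0.30 ± 0.06 on the log2 scale (adjusted p = 0.00188). CTSB, another cysteine protease gene, had 0.12 ± 0.05 (adjusted p = 0.0747), and LAMP1, the abundant partner of LAMP2 in the membrane, had 0.07 ± 0.04 (adjusted p = 0.279). The HEXA call was lost without siNT DMSO replicate 3 or siTAZ DMSO replicate 3 (highest adjusted p = 0.109). With the mean of all probe sets, CTSZ had a log2FC of 0.04 (adjusted p = 0.651) and HEXA was not called either.

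**Figure D3:**
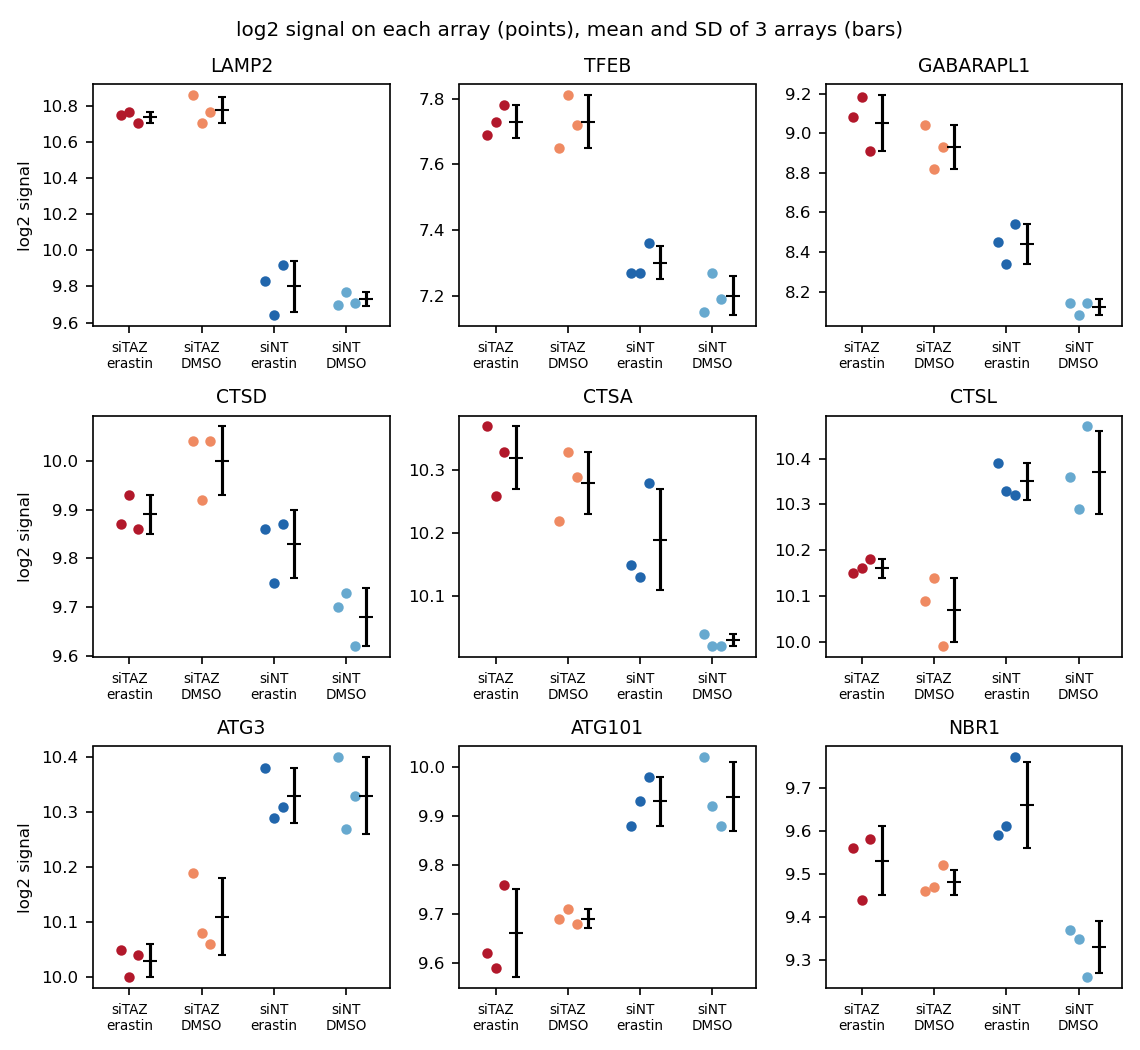
log2 signals of 9 genes on each array (points, 3 per group), with the mean and SD of the group beside them. LAMP2, TFEB and GABARAPL1 are higher in both siTAZ groups, CTSL, ATG3 and ATG101 are lower in both, and NBR1 is higher on siNT erastin arrays (9.59 to 9.77) than on siNT DMSO arrays (9.26 to 9.37).

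The promoters of the members were searched for the letters that MiT/TFE factors bind. RefSeq windows (GRCh38.p14) from 250 bases before to 50 after the annotated start were held for 37 of the 42 members; LAMP2, CTSB, HEXA, UVRAG and RB1CC1 had none in the table used. The core TCACGTGA of the CLEAR element was in the windows of 3 of these 37 (8.11%), which were ATG3, LAMP1 and CTSA, and in 1.18% of the 27305 genes with a window. These letters read alike on both strands. The shorter CACGTG, which lies inside TCACGTGA and also reads alike on both strands, was in 4 of the 37 (10.8%), with CTSD the added gene, and in 8.77% of these genes. The 10-base CLEAR palindrome was in 0 of the 37 and in 0.421% of these genes. CATTCC, the letters TEAD factors bind, was in 8 of the 37 on either strand (21.6%; ULK1, ATG13, BECN1, PIK3C3, ATG7, GABARAPL2, OPTN and MITF) and in 16.7% of these genes. None of these 8 was called under silencing on its brightest probe set, but a further probe set of OPTN was called in both media, and one of ATG13 and one of BECN1 under erastin. The cyclic AMP response element TGACGTCA was in 2 of the 37 (GABARAPL1 and MITF) and in 2.25% of these genes, and the ATF4 composite TGATGCAA was in 0 and in 1.08%. A match shows the letters only. The 5 windows below are of genes that rose (CTSA, CTSD, GABARAPL1), fell (ATG3) or were not called (LAMP1); capitals mark TCACGTGA in CTSA, LAMP1 and ATG3, CACGTG in CTSD and TGACGTCA in GABARAPL1.
CTSA (chr20:45891085-45891384, plus strand): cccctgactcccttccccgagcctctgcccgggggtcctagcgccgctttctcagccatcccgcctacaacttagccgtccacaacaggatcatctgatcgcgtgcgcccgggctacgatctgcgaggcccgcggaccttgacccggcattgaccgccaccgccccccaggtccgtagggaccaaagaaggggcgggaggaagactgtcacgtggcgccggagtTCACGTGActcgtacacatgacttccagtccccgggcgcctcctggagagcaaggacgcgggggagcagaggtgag
LAMP1 (chr13:113296989-113297288, plus strand): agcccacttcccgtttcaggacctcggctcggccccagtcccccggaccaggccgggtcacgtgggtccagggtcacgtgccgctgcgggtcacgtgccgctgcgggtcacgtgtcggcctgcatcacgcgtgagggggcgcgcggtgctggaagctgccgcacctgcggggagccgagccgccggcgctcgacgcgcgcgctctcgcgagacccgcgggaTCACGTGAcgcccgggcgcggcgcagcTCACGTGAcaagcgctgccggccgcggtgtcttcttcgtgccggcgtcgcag
CTSD (chr11:1763878-1764177, minus strand): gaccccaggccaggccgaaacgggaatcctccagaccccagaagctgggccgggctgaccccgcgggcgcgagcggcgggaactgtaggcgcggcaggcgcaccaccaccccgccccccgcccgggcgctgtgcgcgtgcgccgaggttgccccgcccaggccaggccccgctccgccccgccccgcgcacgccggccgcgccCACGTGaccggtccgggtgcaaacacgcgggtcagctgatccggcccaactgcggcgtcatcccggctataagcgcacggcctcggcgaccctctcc
ATG3 (chr3:112561913-112562212, minus strand): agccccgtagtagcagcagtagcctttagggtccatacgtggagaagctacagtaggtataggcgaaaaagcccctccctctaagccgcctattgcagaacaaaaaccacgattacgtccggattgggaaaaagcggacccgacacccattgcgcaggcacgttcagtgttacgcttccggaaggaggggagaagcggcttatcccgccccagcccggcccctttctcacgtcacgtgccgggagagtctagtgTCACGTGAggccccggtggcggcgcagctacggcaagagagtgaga
GABARAPL1 (chr12:10212627-10212926, plus strand): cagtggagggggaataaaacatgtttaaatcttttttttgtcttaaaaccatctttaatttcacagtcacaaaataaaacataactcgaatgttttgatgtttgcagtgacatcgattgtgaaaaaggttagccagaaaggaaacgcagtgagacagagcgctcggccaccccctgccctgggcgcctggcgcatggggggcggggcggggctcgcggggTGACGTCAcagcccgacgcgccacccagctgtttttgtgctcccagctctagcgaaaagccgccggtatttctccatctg
Among the members TCACGTGA stood in the promoters of a gene that rose, one that fell and one that was not called. In the further lists described below it was in GAA, GALNS, SCPEP1, IGF2R, SLC36A1 and NRBF2, which rose in DMSO. It was also in CLN3, MCOLN1, ATP6V0D1, ATP6V1G1, TSC2 and RRAGB, which were not called in DMSO. GNPTG, which had no probe set, held it too. Any relation of these letters to direction was not tested. Bases are counted from 1 at the 5′ end of each window: the capitals begin at base 225 in CTSA, at 222 and 249 in LAMP1, at 204 in CTSD, at 255 in ATG3 and at 221 in GABARAPL1.

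Of the 11 conjugation genes, 1 rose and 1 fell in DMSO (18.2%, beside 28.6% of all genes), with a median log2FC of −0.02. Under erastin 1 rose and 1 fell too (18.2%, beside 28.2% of all genes), with a median of −0.02. GABARAPL1 encodes an ATG8 protein of the GABARAP family. It had 9.04, 8.82 and 8.93 on siTAZ DMSO arrays, against 8.14, 8.08 and 8.14 on siNT DMSO arrays, and rose by 0.81 ± 0.08 (adjusted p = 1.27e-05). Under erastin it had 9.08, 9.18 and 8.91 on siTAZ arrays, against 8.45, 8.34 and 8.54 on siNT arrays, and rose by 0.61 ± 0.08 (adjusted p = 0.00012). All 6 siTAZ arrays were above all 6 siNT arrays. Its second probe set rose too, by 0.69 (adjusted p = 0.000602) and 0.46 (adjusted p = 0.00892). The transcribed pseudogene GABARAPL3 is nearly identical to GABARAPL1, so the source of this signal is uncertain.

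ATG3, the E2-like enzyme that passes ATG8 proteins to phosphatidylethanolamine, had 10.19, 10.08 and 10.06 on siTAZ DMSO arrays, against 10.40, 10.27 and 10.33 on siNT DMSO arrays. Under erastin ATG3 had 10.05, 10.00 and 10.04 on siTAZ arrays, against 10.38, 10.29 and 10.31 on siNT arrays. It was lower on each siTAZ array than on any siNT array and fell by 0.22 ± 0.06 in DMSO (adjusted p = 0.0102) and by 0.30 ± 0.06 under erastin (adjusted p = 0.00163), both on the log2 scale. The DMSO call was lost without siNT DMSO replicate 1 or siTAZ DMSO replicate 3 (highest adjusted p = 0.0522). The other ATG8 genes were not called: MAP1LC3B, the LC3 gene most used to follow autophagy, had −0.14 ± 0.06 (adjusted p = 0.123) and −0.08 ± 0.06 (adjusted p = 0.418), and GABARAP had 0.06 ± 0.05 in each medium. GABARAPL2 had −0.02 ± 0.06 and 0.01 ± 0.06. Nor were the E1-like enzyme gene ATG7 (−0.05 ± 0.10 and 0.03 ± 0.10), the ATG8 protease genes ATG4A and ATG4B, or ATG5, ATG12 and ATG16L1, whose proteins form the complex that directs ATG8 ligation. ATG5 and ATG12 each have a further probe set that was called, at −0.30 (adjusted p = 0.000913) and −0.42 (adjusted p = 0.000514) in DMSO, and at −0.17 (adjusted p = 0.0345) and −0.48 (adjusted p = 0.000174) under erastin.

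Of the 15 initiation genes, 2 rose and 3 fell in DMSO (33.3%, beside 28.6% of all genes), with a median log2FC of −0.04. Under erastin 1 rose and 1 fell (13.3%, beside 28.2% of all genes), with a median of −0.01. ATG101, a subunit that steadies ATG13 in the ULK1 complex, had 9.69, 9.71 and 9.68 on siTAZ DMSO arrays, against 10.02, 9.92 and 9.88 on siNT DMSO arrays. Under erastin ATG101 had 9.62, 9.59 and 9.76 on siTAZ arrays, against 9.88, 9.93 and 9.98 on siNT arrays. The groups did not overlap, and ATG101 fell by 0.25 ± 0.06 in DMSO (adjusted p = 0.00734) and by 0.27 ± 0.06 under erastin (adjusted p = 0.00463), both on the log2 scale. With the actin control signal as a covariate its erastin call was lost, at −0.17 (adjusted p = 0.137).

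On the brightest probe sets, the other initiation calls were seen in 1 medium each. No interaction was called for these genes, so a difference between the media was not shown. ATG2A, a lipid transfer protein gene of the growing autophagosome, fell by 0.21 ± 0.06 (adjusted p = 0.0155) in DMSO and had −0.14 ± 0.06 (adjusted p = 0.0975) under erastin. PIK3R4, which encodes the VPS15 subunit of the phosphatidylinositol 3-kinase complex, fell by 0.19 ± 0.06 (adjusted p = 0.0251) in DMSO and had −0.12 ± 0.06 (adjusted p = 0.146) under erastin. AMBRA1, whose protein binds beclin 1, rose by 0.26 ± 0.08 (adjusted p = 0.0257) in DMSO and had 0.17 ± 0.08 (adjusted p = 0.128) under erastin. RB1CC1, the gene of the ULK1 complex scaffold FIP200, rose by 0.21 ± 0.06 (adjusted p = 0.0291) in DMSO and had −0.04 ± 0.06 (adjusted p = 0.72) under erastin; its second probe set rose in both, by 0.58 (adjusted p = 0.00271) and 0.34 (adjusted p = 0.0476). WIPI2, which recruits the ligation complex, had −0.01 ± 0.06 in DMSO and rose by 0.17 ± 0.06 (adjusted p = 0.0499) under erastin, a call lost with any compared array left out. The kinase gene ULK1 had 0.01 ± 0.08 and −0.11 ± 0.08, and the beclin 1 gene BECN1 had −0.04 ± 0.05 and −0.09 ± 0.05.

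These smaller calls were lost when single arrays were left out. ATG2A was lost without siNT DMSO replicate 2 or siTAZ DMSO replicate 1, and PIK3R4 without siNT DMSO replicate 1 or any siTAZ DMSO array. AMBRA1 was lost without siNT DMSO replicate 3 or siTAZ DMSO replicate 1 or 3, and RB1CC1 without siNT DMSO replicate 3 or siTAZ DMSO replicate 1 or 2. Their highest adjusted p in these fits were 0.0669, 0.112, 0.0982 and 0.112, in that order. Without siTAZ DMSO replicate 1, 0 initiation genes rose and 1 fell. ULK2, the ULK1 relative, had a dim brightest probe set with log2FC of −0.24 ± 0.10 (adjusted p = 0.094) and 0.28 ± 0.10 (adjusted p = 0.0574), whereas a second probe set rose by 0.62 (adjusted p = 0.003) and 0.68 (adjusted p = 0.00167).

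Of the 5 cargo receptor genes, 1 rose in DMSO (20%, beside 28.6% of all genes called). Under erastin 0 were called, beside 28.2% of all genes. The medians were 0.04 and 0.02. TAX1BP1, a receptor that links ubiquitinated cargo to ATG8 proteins, had 10.52, 10.46 and 10.51 on siTAZ DMSO arrays, against 10.33, 10.38 and 10.35 on siNT DMSO arrays. It rose by 0.15 ± 0.05 (adjusted p = 0.0301), a call lost without replicate 1 or 3 of either DMSO group (highest adjusted p = 0.104). SQSTM1, the gene of the receptor p62, had 10.68, 10.64 and 10.73 on siTAZ DMSO arrays, against 10.65, 10.68 and 10.60 on siNT DMSO arrays, with overlapping groups and a log2FC of 0.04 ± 0.05. OPTN, the optineurin gene, had −0.02 ± 0.06. For both genes another probe set passed the test: SQSTM1 had −0.46 (adjusted p = 0.000272) in DMSO and −0.51 (adjusted p = 0.000121) under erastin, and OPTN had 0.47 (adjusted p = 8.83e-05) and 0.50 (adjusted p = 6.76e-05). The receptor genes NBR1 and CALCOCO2 were not called under silencing, with 0.16 ± 0.06 (adjusted p = 0.0883) and −0.09 ± 0.07 (adjusted p = 0.412) in DMSO.

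**Figure D4:**
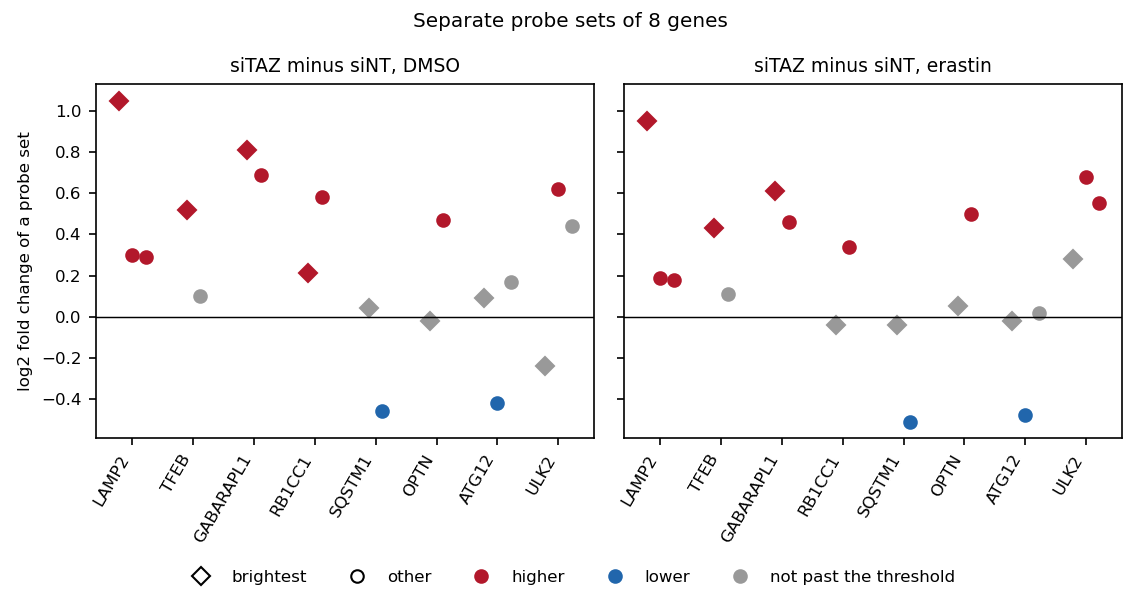
log2 fold change of siTAZ over siNT for each probe set of 8 genes, in DMSO (left) and under erastin (right); diamonds are the brightest probe sets, circles the others, and colour marks adjusted p under 0.05. The 3 LAMP2 and 2 GABARAPL1 probe sets are all above 0, whereas the brightest SQSTM1 and OPTN probe sets lie near 0 and their others at −0.46 and 0.47 in DMSO.

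Other members had such splits between probe sets too. Splits were not counted over all genes, of which 28.6% in DMSO and 28.2% under erastin were called on the brightest probe set. More than 1 probe set was present for 26 members. Among the 10 of these called in DMSO, 9 had all further probe sets on the same side of 0, and 4 had another one called the same way (RB1CC1, GABARAPL1, TAX1BP1 and LAMP2). Among the 16 not called in DMSO, 6 had a further probe set that was called (ULK2, ATG5, ATG12, SQSTM1, OPTN and LAMP1). Under erastin, 5 called members had several probe sets; 4 of them had all further ones on the same side of 0, and 2 had another called the same way (GABARAPL1 and LAMP2). Among the 21 not called under erastin, 10 had a further probe set that was called (ULK2, RB1CC1, ATG13, BECN1, PIK3R4, AMBRA1, ATG5, ATG12, SQSTM1 and OPTN). That of PIK3R4 was very dim, with a mean log2 signal of 2.54. In the fit of all probe sets WIPI2 under erastin and NBR1 with erastin in siNT cells were not called (adjusted p = 0.0658 and 0.0636).

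Under erastin, the second comparison of siTAZ with siNT called fewer members. LAMP2, GABARAPL1, TFEB and WIPI2 rose, and ATG3, ATG101 and CTSL fell. These 4 and 3 genes are 16.7% of the members, beside 28.2% of all genes, of which 15.6% rose and 12.6% fell. The actin 3′ minus 5′ signal was higher on all 3 siTAZ erastin arrays than on any siNT erastin array; with it as a covariate 5 members rose and 1 fell. In 24 of the 42 members the groups did not overlap, beside 38.8% of all genes. The siTAZ arrays lay above in 13, beside 21.1% of all genes, and below in 11, beside 17.7%. LAMP2, TFEB, GABARAPL1, ATG101, ATG3 and CTSL were called the same way in DMSO, which is 40% of the 15 DMSO calls and 85.7% of the 7 erastin calls; over all genes 2541 were called in both media, 74.3% and 75.4% of the genes called in each. CTSL had 10.15, 10.16 and 10.18 on siTAZ erastin arrays, against 10.39, 10.33 and 10.32 on siNT erastin arrays, and fell by 0.18 ± 0.06 on the log2 scale (adjusted p = 0.0336). Its erastin call was lost in 5 of the 6 fits without a compared array, all but that without siNT erastin replicate 3 (highest adjusted p = 0.104), and with the actin covariate.

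The lysosomal enzymes that rose in DMSO were not called under erastin. CTSD had 9.87, 9.93 and 9.86 on siTAZ erastin arrays, against 9.86, 9.75 and 9.87 on siNT erastin arrays, overlapping groups with a log2FC of 0.06 ± 0.06 (adjusted p = 0.514). CTSA had 0.14 ± 0.06 (adjusted p = 0.0922), HEXA 0.09 ± 0.06 (adjusted p = 0.348) and CTSZ 0.04 ± 0.05 (adjusted p = 0.659). The difference between the media was tested as the interaction, and it was not called for any of the 42 members, nor for any gene (0% of 11963). The interaction of CTSD was −0.26 ± 0.08 (adjusted p = 0.77). At an unadjusted p under 0.05 the interaction picked 6 members, namely ULK2, RB1CC1, WIPI2, ATG4B, NBR1 and CTSD, with adjusted p of 0.755 to 0.77. The share of all genes at this unadjusted threshold was not counted, so these 6 have no background to be set beside.

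Few of these genes passed the test for erastin at 7 hours. In siNT cells NBR1 was the 1 member called (2.38%), beside 0.802% of all genes, of which 0.527% rose and 0.276% fell. The groups did not overlap in 15 of the 42 members, beside 14.4% of all genes. Erastin arrays lay above in 13 and below in 2, beside 5.92% and 8.52% of all genes. NBR1 is a cargo receptor for ubiquitinated proteins and peroxisomes. It had 9.59, 9.61 and 9.77 on siNT erastin arrays, against 9.37, 9.35 and 9.26 on siNT DMSO arrays, and rose by 0.33 ± 0.06 (adjusted p = 0.0375). In siTAZ cells NBR1 had 9.56, 9.44 and 9.58 with erastin and 9.46, 9.47 and 9.52 with DMSO, overlapping values with a log2FC of 0.04 ± 0.06, and its interaction was −0.28 ± 0.09 (adjusted p = 0.77). The NBR1 call was lost with any 1 of the 6 siNT arrays left out, at log2FC of 0.27 to 0.36 and adjusted p of up to 0.125.

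GABARAPL1 had the next largest positive erastin log2FC in siNT cells, 0.32 ± 0.08 (adjusted p = 0.117), with all 3 erastin arrays (8.34 to 8.54) above all 3 DMSO arrays (8.08 to 8.14). In siNT cells 7 of the 11 lysosome genes had every erastin array above every DMSO array and 1 had every one below, with a median log2FC of 0.07 and 0 called; over all genes 5.92% lay wholly above and 8.52% wholly below. The largest of these, HEXA and CTSA, had 0.18 ± 0.06 (adjusted p = 0.313) and 0.16 ± 0.06 (adjusted p = 0.321). The median SD within groups was 0.062 over the 42 members and 0.1 over all genes. The part of this smaller spread in these and the other shares without overlap was not tested. In siTAZ cells 0 of the 42 members were called by limma, beside 0.56% of all genes (0.46% higher and 0.1% lower). The groups did not overlap in 15 members, beside 20.7% of all genes; erastin arrays lay above in 9 and below in 6, beside 10.9% and 9.81% of all genes. Of the 42, 6 had an unadjusted p under 0.05 (RB1CC1, WIPI2, ATG4B, MAP1LC3B, CALCOCO2 and MITF), with a lowest adjusted p of 0.243. Here too the share of all genes at the unadjusted threshold was not counted. The siNT DMSO arrays serve both as control for silencing in DMSO and as baseline for erastin in siNT cells, so these comparisons are not independent. For context, SLC7A11 rose with erastin by 1.48 ± 0.06 in siTAZ cells and by 0.87 ± 0.06 in siNT cells.

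Genes around the 42 were followed in 5 further lists, whose shares called stand beside 28.6% of all genes in DMSO (median log2FC −0.014) and 28.2% under erastin (median 0.006). Lysosomal hydrolases outside the 42 had the largest share called: of 34 measured, 16 rose and 2 fell in DMSO (52.9%; median 0.17), and 18 rose and 3 fell under erastin (61.8%; median 0.20). Of all genes, 14.7% rose and 13.9% fell in DMSO, and 15.6% rose and 12.6% fell under erastin. CTSO, a cysteine protease gene, rose by 0.95 ± 0.07 in DMSO and by 0.69 ± 0.07 under erastin. GALNS and IDS, sulfatase genes of glycosaminoglycan breakdown, rose by 0.60 ± 0.07 and 0.54 ± 0.08 in DMSO, and by 0.56 ± 0.07 and 0.47 ± 0.08 under erastin. SCPEP1 rose by 0.52 ± 0.07 and 0.45 ± 0.07, the phospholipase gene PLA2G15 by 0.47 ± 0.09 and 0.51 ± 0.09, and GAA, the acid α-glucosidase gene, by 0.45 ± 0.08 and 0.43 ± 0.08. CTSK, the dim cathepsin K gene, fell by 0.50 ± 0.07 and by 0.35 ± 0.07 on the log2 scale. With the actin signal as a covariate 12 hydrolase genes rose and 1 fell under erastin. With the mean of all probe sets the erastin call of IDS was lost. CTSO was also the 1 hydrolase gene of 34 called for erastin in siNT cells (0.35 ± 0.07, adjusted p = 0.0379). This is 2.94%, beside 0.802% of all genes, and the other further lists had no such call. How this CTSO call held with arrays left out was not examined.

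Among 23 wider autophagy genes, 7 rose and 2 fell in DMSO (39.1%, beside 28.6% of all genes; median 0.07), and 5 rose and 2 fell under erastin (30.4%, near the 28.2% of all genes; median 0.02). With 1 compared array left out, 5 to 7 rose and 2 to 3 fell in DMSO. The DMSO calls of TOLLIP and NRBF2 were lost in 5 and 3 of these fits. Under erastin 1 fell if siTAZ erastin replicate 1, or siNT erastin replicate 2, was left out. TECPR2, an adaptor of ATG8 proteins, had 7.52, 7.66 and 7.73 on siTAZ DMSO arrays, against 5.81, 5.83 and 5.44 on siNT DMSO arrays, and rose by 1.94 ± 0.11 in DMSO and by 1.74 ± 0.11 under erastin. Its second probe set had 0.21 (adjusted p = 0.286) and 0.33 (adjusted p = 0.0828) and was not called. BNIP3L, the mitophagy receptor gene NIX, fell by 0.72 ± 0.06 in DMSO and by 0.86 ± 0.06 under erastin on the log2 scale, and its second probe set fell too, with −0.57 and −0.54. ATG14, the subunit that directs the phosphatidylinositol 3-kinase complex to autophagy, rose by 0.43 ± 0.06 and 0.42 ± 0.06. WDFY3, an adaptor for aggregate clearance, rose by 0.62 ± 0.09 and 0.46 ± 0.09, FYCO1, which moves autophagosomes along microtubules, by 0.31 ± 0.06 and 0.38 ± 0.06, and the dim LC3 gene MAP1LC3C by 0.72 ± 0.12 and 0.64 ± 0.12.

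Of 19 subunit genes of the V-ATPase, the proton pump that acidifies lysosomes, 5 rose and 2 fell in DMSO (36.8%, beside 28.6% of all genes; median 0.05), and 3 rose and 2 fell under erastin (26.3%, below the 28.2% of all genes; median 0.06). ATP6V1B2 and ATP6V1A encode the B2 and A subunits of the same catalytic ring and moved in opposite directions. ATP6V1B2 had 9.54, 9.71 and 9.63 on siTAZ DMSO arrays, against 10.79, 10.84 and 10.53 on siNT DMSO arrays, and fell by 1.09 ± 0.11 in DMSO and by 1.26 ± 0.11 under erastin on the log2 scale. ATP6V1A rose by 0.53 ± 0.05 and 0.50 ± 0.05, the call under erastin not holding with the mean of all probe sets, and the membrane subunit gene ATP6V0A1 fell by 0.37 ± 0.05 and 0.38 ± 0.05 on the log2 scale. Without siNT DMSO replicate 3, 2 subunit genes rose in DMSO, and without siNT DMSO replicate 2 or siTAZ DMSO replicate 1 or 3, 3 did. Without siNT erastin replicate 1, 4 fell under erastin.

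Of 16 genes of the lysosomal membrane and of enzyme delivery, 5 rose and 2 fell in each medium (43.8% each, beside 28.6% of all genes in DMSO and 28.2% under erastin; medians 0.04 and 0.03). Mannose 6-phosphate tags carry new hydrolases to lysosomes, and genes of the tagging enzyme (GNPTAB) and of both receptors (IGF2R and M6PR) rose. GNPTAB rose by 0.44 ± 0.07 in DMSO and 0.38 ± 0.07 under erastin, IGF2R by 0.47 ± 0.08 and 0.24 ± 0.08, and M6PR by 0.34 ± 0.09 and 0.35 ± 0.09. The amino acid transporter gene SLC36A1 rose by 0.45 ± 0.06 in each medium. In DMSO the cholesterol carrier gene NPC2 fell by 0.31 ± 0.06 on the log2 scale. Without replicate 1 or 2 of either DMSO group, 1 fell in DMSO. Under erastin 5 rose and 0 fell without siTAZ erastin replicate 1 or 2 and likewise without siNT erastin replicate 3, 3 rose and 0 fell without siTAZ erastin replicate 3, and with the actin covariate 4 rose and 0 fell. Both GNPTAB calls were lost with the mean of all probe sets. The erastin call of IGF2R was lost without replicate 1 of either erastin group, siNT erastin replicate 2 or siTAZ erastin replicate 3. A second IGF2R probe set rose by 0.39 in DMSO (adjusted p = 0.000388) and by 0.38 under erastin (adjusted p = 0.000476).

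Of 19 genes upstream of ULK1 and TFEB, 6 rose and 2 fell in DMSO (42.1%, beside 28.6% of all genes; median 0.09), and 6 rose and 3 fell under erastin (47.4%, beside 28.2% of all genes; median 0.08). PPP3CB, a catalytic subunit of calcineurin, the phosphatase that activates TFEB, rose by 0.70 ± 0.07 in each medium, and its second probe set rose by 0.82 and 0.83. PRKAB2, a subunit of the energy sensor AMPK, rose by 0.36 ± 0.11 in DMSO and by 0.71 ± 0.11 under erastin. RRAGC, a GTPase that brings mTORC1 to lysosomes, rose by 0.30 ± 0.05 and 0.20 ± 0.05, and LAMTOR3, a subunit of its lysosomal anchor, fell by 0.28 ± 0.06 and 0.32 ± 0.06 on the log2 scale. DDIT4, an inhibitor of mTORC1, fell by 1.93 ± 0.09 with siTAZ in each medium on the log2 scale. In DMSO these counts dropped to 2 risen and 1 fallen without siTAZ DMSO replicate 1 or 2, to 3 and 1 without siNT DMSO replicate 1, to 5 and 1 without siNT DMSO replicate 2, and to 3 and 2 without siNT DMSO replicate 3; the DMSO call of PRKAB2 was lost without replicate 1 or 2 of either DMSO group. Without siTAZ erastin replicate 2, 5 rose and 1 fell under erastin, with the calls of PRKAA1 and PRKAG1 lost. With the actin covariate 3 rose and 1 fell under erastin, and the erastin call of RRAGC was lost, as it was without siTAZ erastin replicate 3.

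**Figure D5:**
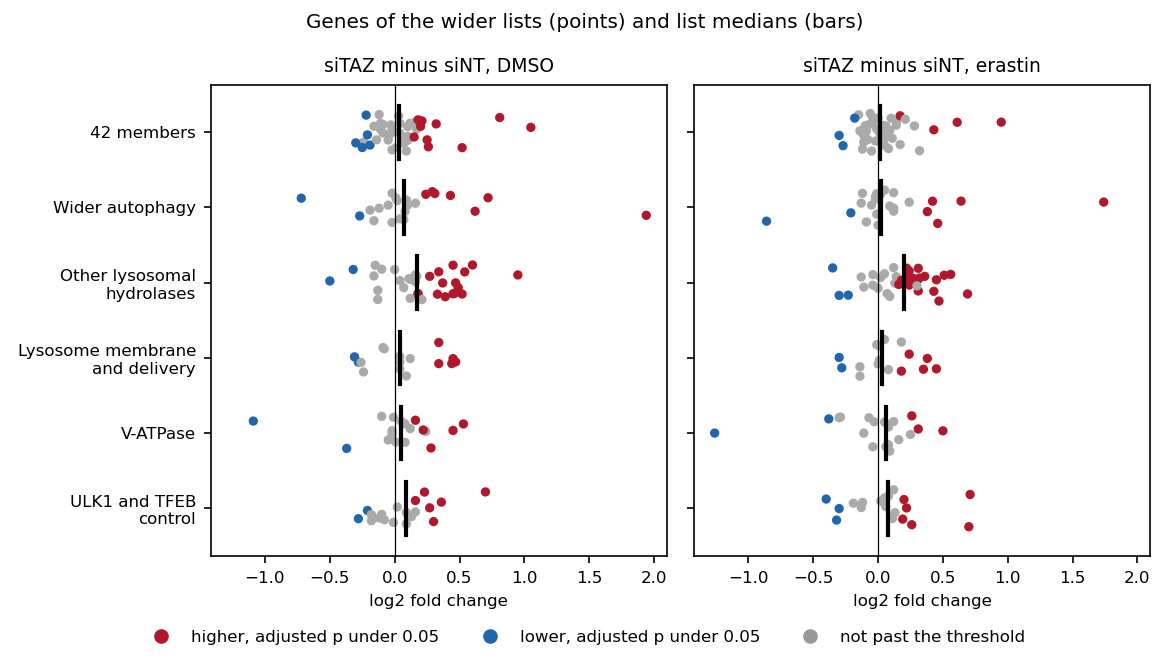
log2 fold change of siTAZ over siNT for each gene (points) of the 42 and of the 5 further lists, with the list median as a black bar, in DMSO (left) and under erastin (right). The hydrolase list has medians of 0.17 and 0.20, the 42 have 0.03 and 0.02, and ATP6V1B2 at −1.09 and −1.26 is the lowest point in both panels.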

How the data were processed

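The authors deposited log2 signals for each probe set. Per the submitters' processing notes the tools were RMA and Affymetrix Expression Console, whose versions no source used here gives. The series text also describes a transformation against the siNT mean, which the deposited values do not show. Titles gave the groups, and 0 columns were left unmapped. The 22277 probe sets included 62 controls, 1043 for several genes and 2108 with no gene, which were dropped; the remaining 19064 gave 11963 genes, named from the platform annotation. Array medians were 6.48 to 6.54, signals ran from 2.02 to 14.4, and the number of arrays limits the precision.

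All 12 arrays entered 1 limma 3.58.1 fit (R 4.3.3) with a mean per group (8 residual and 3.9 prior degrees of freedom). The 5 contrasts, silencing in each medium, erastin with each siRNA and their interaction, were tested with Benjamini-Hochberg adjustment over all genes at 0.05, without a minimum fold change. Separate probe sets were fitted over all 19064. No source used here states that replicate numbers of the titles mark a shared day or culture, so no block was used. Deviations of same-numbered arrays from their group means had r of −0.417 to 0.356 over 18 pairs, 4 over 0.1. Alternatives were a replicate block, median centring, a second quantile normalisation, a filter on dim genes, the mean of all probe sets, the compared groups alone, array weights, trend and robust settings, the actin 3′ minus 5′ signal as a covariate, and leaving out each array. Promoter windows and symbols came from RefSeq tables; no other coordinates were used.

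The members, role groups, further lists and promoter motifs were chosen with earlier results of these data known. All 42 members could be named, of each further list up to 6 genes with the largest called change per comparison, and WWTR1, YAP1, DDIT4 and SLC7A11. No list was tested as a set; lists are described by counts and medians beside those of all genes.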

Additional observations from a re-analysis of the deposited data

How the results depend on the processing

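LAMP2, TFEB and GABARAPL1 kept both silencing calls in all 15 alternatives run for each, with log2 fold changes in DMSO of 0.55 to 1.09, 0.31 to 0.56 and 0.75 to 0.86, and under erastin of 0.44 to 1.02, 0.27 to 0.48 and 0.54 to 0.69. ATG101, CTSA, CTSD and CTSL kept their DMSO call in all 15, and ATG3 its erastin call. ATG101, CTSA, CTSD and CTSL have 1 probe set each, so the mean of all probe sets could not change their log2 fold change. Over all members, comparisons and alternatives, 3251 values kept their side of the threshold, 57 lost a call and 45 gained one. A further 2 changed sign with a call in either fit. Values called in neither fit count among the 3251 even where their sign changed, as for ULK1 in DMSO (−0.09 to 0.10). With the mean of all probe sets SQSTM1 had −0.21 (adjusted p = 0.012) and OPTN 0.23 (adjusted p = 0.00224) for siTAZ in DMSO. The cause of the other changes was not tested.

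For siTAZ under erastin, the members that rose (4) became 7 with the filter on dim genes and 7 with array weights, and those that fell (3) became 6 with the mean of all probe sets, 6 with array weights and 1 with the actin covariate. For erastin in siNT cells, the 96 genes called became 186 with trend and robust settings, 324 with array weights and 15 with only the compared groups; the 1 member that rose became 0 with the mean of all probe sets, 2 with trend and robust settings, 2 with array weights and 0 with only the compared groups. For erastin in siTAZ cells, the 67 genes became 164 with trend and robust settings and 166 with array weights. The interaction called 3 genes with centring, 3 with a second quantile normalisation, 3 with the filter on dim genes, 10 with trend and robust settings and 3 with array weights, against 0.

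With an array left out, siTAZ in DMSO called 2809 to 3030 genes, with 6 to 10 members higher and 3 to 5 lower; siTAZ under erastin called 2775 to 3236, with 3 to 6 and 2 to 3. Erastin in siNT cells called 30 to 65 genes and in siTAZ cells 30 to 41, the interaction 0 to 1, each with 0 members.

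With the replicate number as a block, erastin in siNT cells called 39 genes and 0 members and erastin in siTAZ cells 34 genes; silencing lost RB1CC1 and TAX1BP1 in DMSO and WIPI2 and CTSL under erastin. Deviations of same-numbered arrays of different groups had a median r of −0.0605 over 18 pairs, against 0.0285 over the others. Same-numbered siNT and siTAZ erastin arrays had r of −0.048, 0.356 and 0.301, and the 18 pairs ran from −0.417 to 0.356. No source used here states what the numbers mark, so whether they pair the arrays cannot be settled.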
